A study of Mus musculus with 11 samples.

Results

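The genes described here encode 10 of the proteins of milk other than the caseins, and are not a full list of them. They are 5 whey proteins (Wap, Lalba, Glycam1, Expi and Spp1) and 5 grouped here as milk defence and enzyme proteins (Ltf, Lpo, Cel, Lao1 and Muc15). The genes were chosen by symbol, with earlier results of these data known, and are 10 of the 14847 genes that the authors' expression table names. The series asked how STAT5A binding and the promoter mark H3K4me3 build up at mammary genes through pregnancy, and expression was read at its end point. The library used is RNA-seq of mammary gland from wild-type mice on a mixed background labelled 129SV::FVB/N::C57BL/6, collected at parturition, with the lymph nodes taken out before freezing. The number of animals behind it is not given in the labels. It is 1 library of 11 samples, and the ChIP-seq and input samples were not used here. Nothing below therefore has a replicate check, an SD or a p-value, and the sequencing depth is unknown because the table gives no counts.

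Whey is the soluble part of milk that remains once the caseins have curdled. In the secretory epithelium of the gland, prolactin acts through its receptor and the transcription factor STAT5 to switch on whey protein genes as birth approaches. Several whey proteins feed the young or build lactose, the milk sugar, while others bind iron, oxidise microbial targets or coat surfaces, and so protect the gland and the gut of the pup. Levels are given in FPKM, the number of fragments scaled by transcript length and by mapped fragments, so levels of different genes can be set side by side. In whole tissue, a low level from fewer cells of a type and one from less RNA per cell cannot be told apart.

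All 5 whey genes ranked within the top 20 of the named genes. Wap encodes whey acidic protein, a small cysteine-rich protein of rodent milk, and stood at 63664 FPKM, which is rank 5 of 14847. Glycam1 encodes a short mucin-like glycoprotein that is secreted into milk and, in lymph nodes, carries the sugars that bind L-selectin. It stood at 59241 FPKM, rank 6, and Wap lay 1.07 times above it. Together Wap and Glycam1 held 75.6% of the summed FPKM of the 10 genes.

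Spp1 encodes osteopontin, a phosphorylated protein that binds calcium and integrins, and reached 19351 FPKM, rank 10. Expi, now named Wfdc18, encodes a secreted protein with a WAP domain and stood at 8186 FPKM, rank 18. Lalba encodes alpha-lactalbumin, which turns a Golgi galactosyltransferase into lactose synthase, and stood at 8034 FPKM, rank 19. The whey genes thus formed 3 steps: Wap beside Glycam1, then Spp1, above which Glycam1 lay 3.06 times, then Expi and Lalba, which differed by a factor of 1.02. With 1 library there is no spread against which to set such close pairs, so the order within them is not established.

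**Figure D1:**
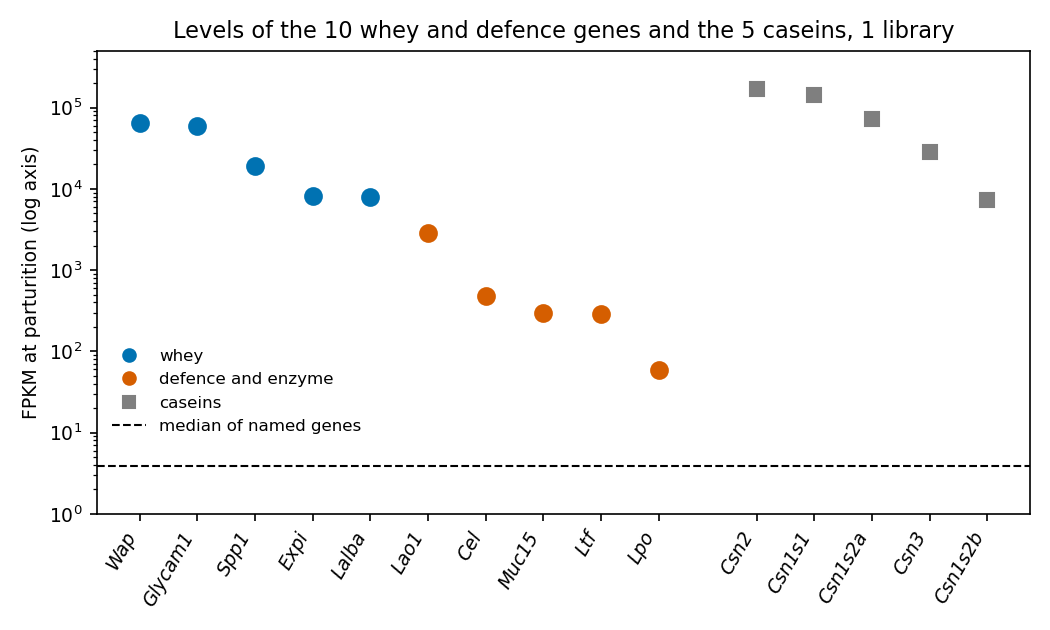
FPKM at parturition on a log axis for the 10 genes, ordered by level (circles: whey in blue, defence and enzyme in orange), and for the 5 caseins (squares). Each point is the single library, with no error bar, and the dashed line is the median of all named genes, 3.9 FPKM. The whey genes lie between 8034 and 63664 FPKM and the defence and enzyme genes between 58.8 and 2885.

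The defence and enzyme genes covered a wider range at lower levels. Lao1 encodes an L-amino acid oxidase that releases hydrogen peroxide from free amino acids, and led them at 2885 FPKM, rank 29. Cel encodes the bile salt-stimulated lipase, which milk of mice and humans delivers to the gut of the young, and stood at 480.0 FPKM, rank 125. Muc15, a membrane mucin known from the fat globules of bovine milk, stood at 292.3 FPKM, and Ltf, the iron-binding protein lactoferrin, at 291.7, on ranks 190 and 192. Lpo encodes lactoperoxidase, which uses hydrogen peroxide to make antimicrobial oxidants, and was the lowest of the 10 at 58.8 FPKM, rank 731.

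The 2 classes, as sorted here, did not overlap in level. That depends on the sorting, which was made with earlier results of these data known. In the wider sense of whey given above, Ltf and Lpo would count as whey too. The transferrin gene Trf, at 11909 FPKM, lay above Expi and Lalba and is in neither class. The lowest whey gene, Lalba, stood 2.79 times above the highest defence gene, Lao1. The median of the whey genes was 19351 FPKM and that of the defence and enzyme genes 292, a ratio of 66.2. The whey genes spanned a factor of 7.92 among themselves and the defence and enzyme genes a factor of 49.0. Over all 10 genes the span from Wap to Lpo was 1082-fold. The median of the 10 genes, 5459 FPKM, is the midpoint of Lalba and Lao1, the 2 middle values. It describes no single gene of the 10.

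Even the lowest of the 10 was high on the scale of the whole table. Lpo stood 15.1 times above the median named gene, and only 4.92% of named genes were higher. All 10 genes reached 1 FPKM, as did 73.6% of all named genes. At least 100 FPKM was reached by 9 of the 10 genes, the exception being Lpo, against 2.96% of all named genes. At least 1000 FPKM was reached by 6 of them, the whey genes and Lao1, against 0.344%. At least 5000 FPKM was reached by the 5 whey genes only, against 0.141%, or 21 named genes.

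**Figure D2:**
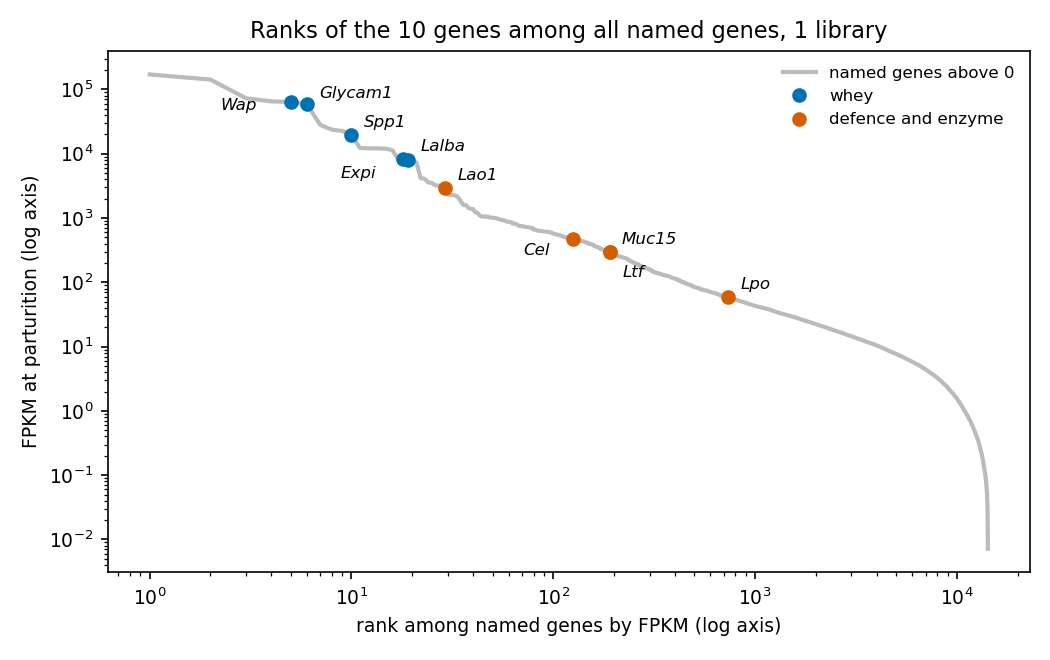
FPKM against rank among the named genes above 0, both on log axes, with the 10 genes marked (blue: whey; orange: defence and enzyme). The whey genes occupy ranks 5 to 19, Lao1 rank 29, Cel, Muc15 and Ltf ranks 125 to 192, and Lpo rank 731.

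The 10 genes held 15.0% of the summed FPKM of named genes, of which the whey genes accounted for nearly all: 14.7% for the whey genes and 0.371% for the defence and enzyme genes. Wap alone held 5.89% and Glycam1 5.48%, while Lpo held 0.00544%. The whey genes summed to 158475 FPKM, against 421514 for the 5 casein genes, a ratio of 0.376. Wap and Glycam1 nevertheless stood 2.27 and 2.11 times above the kappa-casein gene Csn3 at 28095 FPKM, and all whey genes stood above Csn1s2b at 7259. Relative to the beta-casein gene Csn2, Wap reached 37.3% and Lpo 0.0344%. Against all loci of the table the 10 genes held 6.91%, and Wap took rank 8 in place of 5, since unnamed loci alone carried 53.3% of that sum.

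Promoter sequences of the 10 genes were looked at for what they share beyond level. RefSeq's table of the assembly GRCm38.p6 held windows for 9 of the 10 genes (all but Muc15), with a pair of windows for Spp1, and the 250 bases before the annotated start were read in each. STAT5 is known to bind the palindrome TTCNNNGAA, which reads the same on both strands. A single window of the 10 held it, that of Glycam1, where TTCCCAGAA begins 145 bases before the start. Of all 21263 windows of protein-coding genes 6.58% held this motif. These windows cover only the nearest bases, so no match says nothing of sites elsewhere.

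The 4 sequences below are those of the whey genes Wap, Glycam1, Expi and Lalba, shown with that of Lao1, which lacks the run TAAA near the start. Each reads 5′ to 3′ on the strand of the gene and ends at the last base before the start. Capitals mark TTCNNNGAA, TATAAA on either strand, and TAAA on the gene's strand in the last 50 bases, of which TATAAA contains the last 4 letters.
Wap, chr11:6638650-6638899, minus strand: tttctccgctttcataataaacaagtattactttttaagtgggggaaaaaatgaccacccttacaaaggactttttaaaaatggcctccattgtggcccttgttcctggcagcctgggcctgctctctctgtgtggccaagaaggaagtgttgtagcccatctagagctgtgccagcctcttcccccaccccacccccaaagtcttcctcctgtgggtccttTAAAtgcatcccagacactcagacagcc
Glycam1, chr15:103565082-103565331, minus strand: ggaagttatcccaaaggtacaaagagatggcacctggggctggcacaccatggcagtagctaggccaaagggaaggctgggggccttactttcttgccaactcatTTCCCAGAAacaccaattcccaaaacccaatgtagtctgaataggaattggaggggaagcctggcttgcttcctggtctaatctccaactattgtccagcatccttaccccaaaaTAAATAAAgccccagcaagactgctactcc
Expi, chr11:83708754-83709003, plus strand: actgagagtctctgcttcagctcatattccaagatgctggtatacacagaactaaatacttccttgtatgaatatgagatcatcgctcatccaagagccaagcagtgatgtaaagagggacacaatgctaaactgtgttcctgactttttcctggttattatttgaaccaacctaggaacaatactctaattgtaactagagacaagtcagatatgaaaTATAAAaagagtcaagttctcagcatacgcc
Lalba, chr15:98482684-98482933, minus strand: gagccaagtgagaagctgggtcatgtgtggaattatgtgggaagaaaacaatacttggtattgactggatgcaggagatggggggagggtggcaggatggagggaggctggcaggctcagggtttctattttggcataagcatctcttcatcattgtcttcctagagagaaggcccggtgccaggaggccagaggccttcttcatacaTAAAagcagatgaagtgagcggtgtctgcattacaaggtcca
Lao1, chr4:118961717-118961966, plus strand: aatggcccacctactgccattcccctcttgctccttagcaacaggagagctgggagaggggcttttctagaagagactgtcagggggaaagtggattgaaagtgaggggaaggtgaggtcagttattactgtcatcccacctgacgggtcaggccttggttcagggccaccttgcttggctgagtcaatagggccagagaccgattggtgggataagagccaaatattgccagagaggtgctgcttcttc

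Close to the start, TAAA stood in 9 of the 10 windows, in all but that of Lao1. The search for TAAA was chosen after the sequences were seen. Of protein-coding windows 14.3% held it in the same 50 bases. In Wap it begins 28 bases before the start, in Expi and Ltf 29, in Glycam1 30 and again 26, in Lpo 34 and in Lalba 42. In Cel it begins only 8 bases before the start, and in the windows of Spp1 18 and 35 bases before it. The full TATA box TATAAA stood near the start in Expi alone, 31 bases before it, and farther away in Spp1, 211 bases before its upstream start, against 11.6% of protein-coding windows that held it anywhere on either strand. The windows were also poor in CpG dinucleotides, with a median of 2, against 10 for protein-coding genes, and 6 of the 10 had at most 2, against 22.6%. Their median GC content was 49.6%, against 55.6%. The promoter of Glycam1 held no CpG and that of Ltf, the richest, 4. A match is a description of letters, and whether STAT5A or H3K4me3 occupies these promoters at day 6 of pregnancy was not analysed here, since those lists are in the build mm9.

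Set among the measured genes of lists by protein family or kind, Wap, Expi, Lalba and Glycam1 stood highest. Spp1 had no measured relative. Of 23 listed WAP domain genes 13 were measured, and Wap at 63664 and Expi at 8186 FPKM were the highest. Next came Wfdc3 at 294 FPKM, Wfdc17 at 52.7 and Wfdc12 at 17.2, so that Expi lay 27.8 times above Wfdc3. The other 11 measured relatives had a median of 4.37 FPKM, among them Slpi, a secreted protease inhibitor of mucosal surfaces, at 14.9 FPKM, and Wfdc15b, listed at 0. Wap and Expi differed from each other by a factor of 7.78 despite the shared domain.

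Lalba descends from the lysozymes, and stood 129.5 times above Lyz2, the lysozyme of macrophages, at 62.0 FPKM. Lyz1 stood at 6.92 FPKM and Lyzl4 at 1.64, or 9.16 summed over its 9 loci. Since Lyz1 and Lyz2 are close copies, reads may be split between them. Lactose synthase needs Lalba together with B4galt1, the galactosyltransferase it modifies. Lalba stood 18.4 times above B4galt1 at 436 FPKM.

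Glycam1 and Muc15 were the highest of 7 measured genes in the mucin list. Muc15 lay 1.65 times above Muc1, a membrane mucin of the apical surface, at 177 FPKM, while Muc20 stood at 14.1 and Podxl at 4.47. Muc15 overlaps Ano3 in the gene table, and the library kit is not stated to keep strand, so reads from the shared stretch cannot be assigned to either gene. Ano3 itself stood at 6.58 FPKM. Spp1 was the only measured gene of its family of bone and tooth matrix proteins, in which 5 are listed. Of 10 osteopontin receptor genes, all measured, Itgb1 was the highest at 66.4 FPKM, with Itgb5 at 14.5 and Itgav at 9.36. The receptor CD44 gene stood at 1.78 FPKM. Spp1 lay 291 times above Itgb1.

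The defence and enzyme genes were not always the highest of their lists, of which those of lipases and of peroxide genes group genes by function. Ltf at 291.7 FPKM stood at 2.45% of its relative Trf, the iron carrier transferrin, at 11909 FPKM, and far above the third relative, Mfi2, at 0.714. Cel stood at 49.3% of Lpl, the lipoprotein lipase that frees fatty acids from blood lipids, at 973 FPKM. Behind them came Pnpla2, a lipase of fat droplets, at 76.3 FPKM and Mgll at 33.0.

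Among genes that make or use hydrogen peroxide, the oxidase gene Lao1 stood far above the peroxidase gene Lpo, which most other listed peroxide sources did not reach. Lao1 stood 49.0 times above Lpo and 11.5 times above Xdh, an oxidase that also serves the milk fat globule, at 251 FPKM; summed over its loci Xdh stood at 413 FPKM, and Lao1 6.98 times above it. Lpo in turn was the highest of the 3 measured haem peroxidases, with Pxdn, a peroxidase of the extracellular matrix, at 5.86 FPKM and Mpo, the peroxidase of neutrophils, at 1.02. Other peroxide sources were lower: the maturation factor gene Duoxa1 stood at 30.8 FPKM, the NADPH oxidase subunit gene Cyba at 27.0, Duox1 at 4.35 and Duox2 at 0.104. Duoxa2 was listed at 0.

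**Figure D3:**
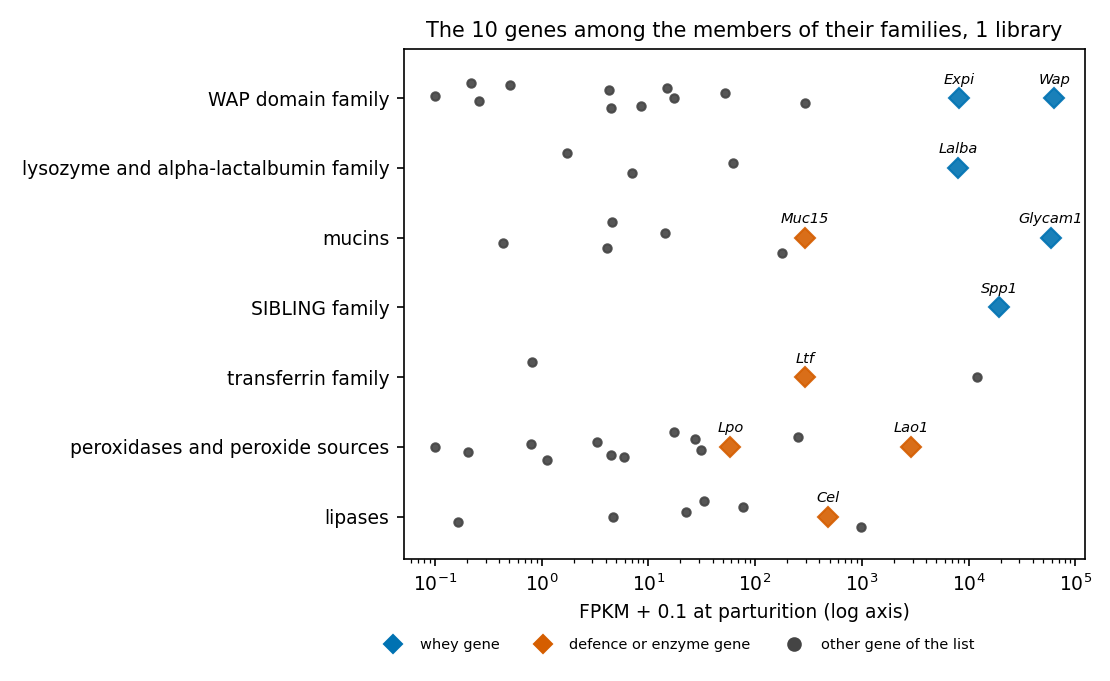
FPKM + 0.1 on a log axis for the measured genes of 7 lists, grouped by protein family or by function, 1 list per row. The 10 genes are labelled diamonds (whey in blue, defence and enzyme in orange) and the other genes of each list are dots. Wap and Expi, Lalba and Glycam1 lie at the right end of their rows, whereas Ltf lies left of Trf at 11909 FPKM and Cel left of Lpl at 973.

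Other genes of innate defence gave a scale for the 5 defence and enzyme genes, of which Cel encodes a lipase and Muc15 a membrane mucin. Of 28 listed, 23 were measured, with a median of 20.1 FPKM. At least 1 FPKM was reached by 21 of these, against 73.6% of all named genes. Lao1 at 2885 FPKM stood above all 23, next to Lcn2, which binds bacterial iron carriers, at 2315 FPKM. Ltf and Muc15, at 291.7 and 292.3 FPKM, stood below Saa1 at 1013 and Saa2 at 552, acute phase proteins that are close copies of each other, and above Pigr, which carries antibodies across the epithelium, at 249. Ltf therefore stood at 12.6% of Lcn2. Cel, at 480.0 FPKM, lay between Saa2 and Pigr. Lpo at 58.8 FPKM lay level with the complement gene C3, also 58.8.

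Each measured neighbour along the chromosome stood below its own gene of the 10, closely so only beside Lpo and Muc15. Most named genes would do so too, as only 4.92% of them stood above even Lpo, the lowest. For each of the 10 genes, the nearest measured protein-coding genes on either side were taken in the gene order of GRCm38.p6, a comparison added after the levels were seen. Genes without a measured value were passed over, so that these neighbours lay 1 to 43 places away. The nearest neighbour on each side, 19 genes in all of which 15 were directly adjacent, had a median of 4.15 FPKM. All named genes had a median of 3.9 FPKM. The range of the 19 ran from 0.614 to 52.7 FPKM. Of 57 neighbours up to the third on each side, 1 reached 100 FPKM, against 2.96% of all named genes. It was Nop10 at 139 FPKM, 42 places from Muc15. None of the 57 stood above its whey or defence gene. Lpo lay only 1.08 times above Dynll2 at 54.2 FPKM and 2.15 times above Srsf1 at 27.4, which lay 6 and 7 places away. No measured gene followed Glycam1 on its chromosome.

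Several of the 10 genes have relatives or known genes beside them. Expi stands between 2 other WAP domain genes, Wfdc17 at 52.7 FPKM and Wfdc21 at 4.17, and lay 155 and 1963 times above them, or 97.3 times above Wfdc17 summed over its loci at 84.2 FPKM. Lpo stands beside Mpo at 1.02 FPKM and lay 57.9 times above it. Lao1 stands beside the glucose transporter gene Slc2a1 at 28.6 FPKM and lay 101 times above it; it also overlaps the long noncoding RNA gene Gm12865, so some of its reads may be shared. Wap stands between Tbrg4 at 14.4 FPKM and Ramp3 at 3.73. Wap, Expi and Lpo share chromosome 11, Lalba and Glycam1 chromosome 15, and Cel and Muc15 chromosome 2, without being neighbours there.

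**Figure D4:**
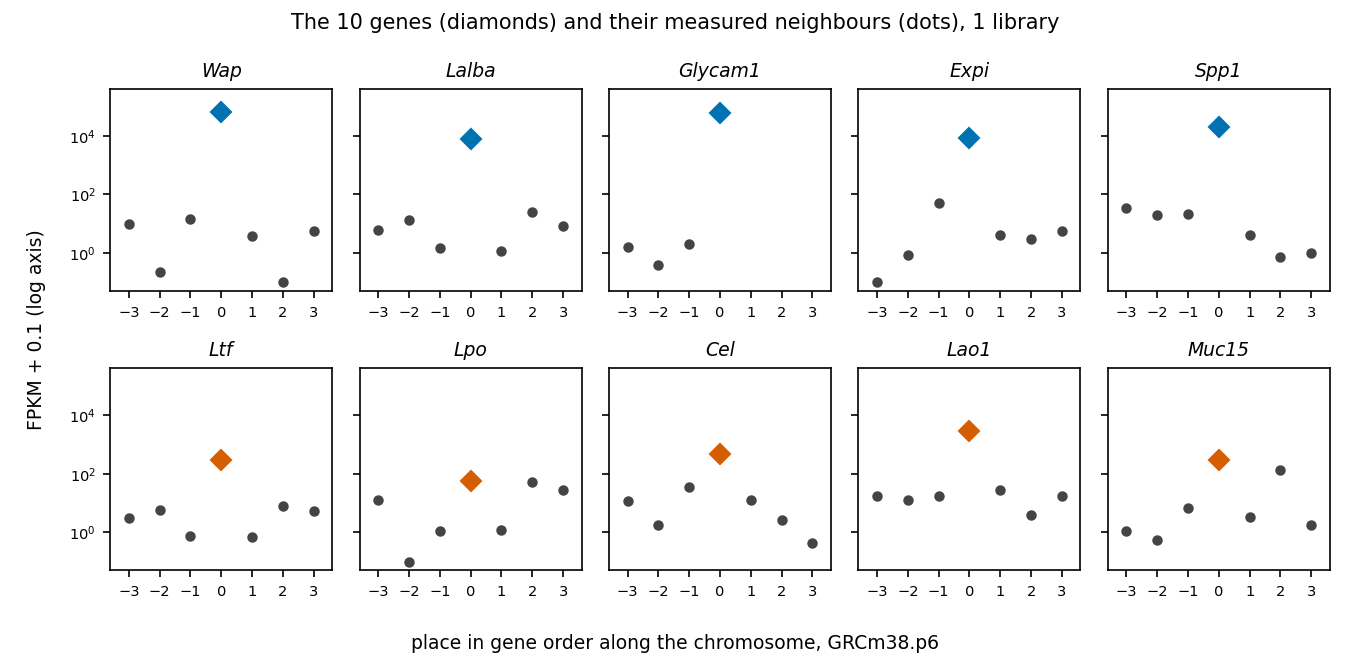
FPKM + 0.1 on a log axis for each of the 10 genes (diamond at place 0; blue: whey; orange: defence and enzyme) and for its measured protein-coding neighbours (dots) up to the third on each side. Every dot lies below the diamond of its panel, with the smallest gap at Lpo, which stands at 58.8 FPKM against 54.2 for Dynll2.

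The tissue label was checked against marker genes, some of which also bear on the 10 genes. All 8 luminal epithelium markers were measured, from 21.4 to 577 FPKM with a sum of 1461, led by Elf5 and Krt19. Myoepithelial markers summed to 213 FPKM over 5 measured genes, adipocyte markers to 1431 over 6 and skeletal muscle markers to 153 over 6. Most of the adipocyte sum came from Fabp4 at 723 and Cfd at 523 FPKM. Adipoq stood at 115, Retn at 49.5, Plin1 at 14.3 and Lep at 5.51. The tissue thus held stroma and muscle as well. Wap stood 357 times above the luminal keratin gene Krt18 at 179 FPKM, and Ltf 1.63 times.

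Some of the 10 genes are known from other cells. Lactoferrin is also stored in neutrophils, and 10 of 13 neutrophil markers were measured. Ltf stood at 291.7 FPKM, against a sum of 2352 FPKM for these markers, nearly all of it from Lcn2 at 2315. Lcn2 is also made by epithelium. The other 9 markers summed to 37.0 FPKM, with Cxcr2 highest at 17.3, Elane next at 8.75 and none at 0. Ltf lay 65.8 times above S100a8, a defining marker, at 4.43 FPKM. Osteopontin is also made by macrophages. Spp1 stood at 19351 FPKM, against a sum of 74.1 for 8 measured markers of 9, led by C1qa at 27.9 and with none at 0.

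Glycam1 is also made by the high endothelial venules of lymph nodes, and 6 of 8 listed markers of lymph nodes were measured. Glycam1 stood at 59241 FPKM, against a sum of 8.65 for these markers, of which Madcam1 held 7.95 while Chst4 and Cr2 were listed at 0. Cel is a pancreatic enzyme as well. It stood at 480.0 FPKM, against 1.35 for Cela1 and 0.184 for Ctrl, the 2 measured markers of 12 listed for acinar cells. Lactoperoxidase is made in salivary and lacrimal glands too. Lpo stood at 58.8 FPKM, against a sum of 43.7 for 4 measured markers of 8. These were Bhlha15, a factor of secretory cells in general, at 17.6 FPKM, Aqp5 at 13.9, Amy1 at 11.5 and Prol1 at 0.602. What share of each transcript came from these cells was not tested.

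**Figure D5:**
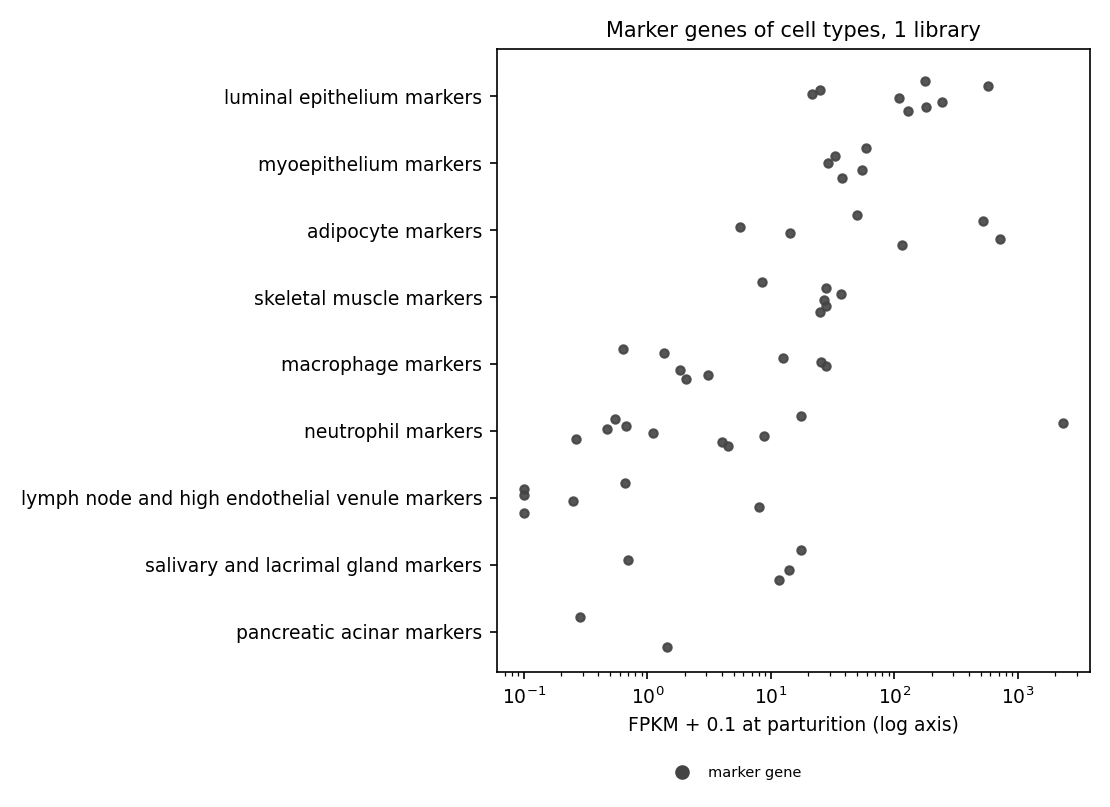
FPKM + 0.1 on a log axis for the measured marker genes of 9 cell types or tissues, 1 per row. The luminal epithelium markers lie between 21.4 and 577 FPKM, while the lymph node markers reach 7.95 and the pancreatic acinar markers 1.35; the dot far right among the neutrophil markers is Lcn2 at 2315.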

How the data were processed

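RNA was extracted from whole mammary tissue, poly(A)-selected and made into a TruSeq library, per the labels' protocols. The submitters' processing notes name CASAVA, TopHat and the build mm9, with versions, the annotation and the program that computed FPKM not given in the sources used here. Deposited by the authors were FPKM values for 30305 loci of a transcript assembly: 21958 with 1 symbol, 117 with several and 8230 with none. Here a gene took its highest locus. Each of the 10 genes had 1 locus, and none lay in a locus with several symbols. Ranks, shares and ratios were computed with pandas 2.3.3. The choice of the highest locus and the ranks were checked on simulated data, the shares and ratios were not. Symbols were matched to the GRCm38.p6 gene table for 14743 of 14847 genes, which served for gene order and names. The 10 genes and the 20 related lists were chosen with earlier results of these data known. Of each list its 3 highest measured genes are named, with the markers listed at 0, apart from single values not reported here; other genes named were chosen after their values were seen. Listed genes without a value under a known symbol were not analysed here. Alternatives were sums and means over loci, a minimum of 1 FPKM, other denominators and pseudocounts of 1 and 0.1. No replicate, depth or P6 and P13 expression value entered.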

Additional observations from a re-analysis of the deposited data

How the results depend on the processing

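The FPKM of each of the 10 genes was the same with sums or means over loci, as each has 1 locus, and 9 reached 100 FPKM under each of these settings and with a minimum of 1 FPKM. The share of 15.0% depended on the denominator: it was 14.8% with sums and 17.7% with means over loci, 6.91% with all loci, 24.6% of named genes without the caseins and, added after the data were seen, 15.5% of protein-coding genes. The ratio of 66.2 between whey and defence genes was 39.5 from sums, chosen after the data were seen, 58.6 with geometric means and 66.0 from medians of log2(FPKM + 1). The median of the 10 genes, 5459 FPKM, became 2885 when any whey gene was left out and 8034 when any defence gene was, also added after the data were seen. Among named genes Wap and Glycam1 kept ranks 5 and 6 under each setting, and Lpo moved most, to 655 with means over loci and 758 with sums, against 731. With all loci ranked, added after the data were seen, Wap, Glycam1 and Spp1 took ranks 8, 9 and 18. In that setting Expi and Lalba took ranks 42 and 43, outside the top 20, Lao1 76 and Lpo 990. No paired analysis was possible because each group used held 1 library. Unknown depth leaves no interval for any value.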

Other observations

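The named genes next to several of the 10 in level were of mixed kinds. Wap stood just below Il1rapl1 at 65299 FPKM, a gene known from neurons, and Spp1 ranked next above the cardiac factor gene Tbx20 at 12280.4. Such levels are unusual for these genes in mammary gland. Whether the reads at their loci came from transcripts of Il1rapl1 and Tbx20 was not tested. The ranks of the 10 genes count such loci at their listed values. Lao1 lay between Rpl41, a ribosomal protein gene, at 3129 FPKM and Lcn2 at 2315. Cel lay just below Atp5o, a subunit gene of the mitochondrial ATP synthase, at 481 FPKM. Muc15 and Ltf stood on either side of Serp1, a gene of the endoplasmic reticulum, at 292 FPKM.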
